A study of Mus musculus with 12 samples.

Results

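In all, 4 rows of the miRNA table (of 1915) are described here: mmu-miR-7214-5p, mmu-miR-7217-3p, mmu-miR-7210-3p and mmu-miR-468-5p. They were chosen by their level before and after oxidation of the RNA, which they kept or gained relative to other miRNAs, while the hairpins they are annotated on also held sequences of piRNA length. Their oxidation change, also by input, is therefore given as a description, and the members and their hairpin sequences were tested only between RNA inputs within a state. The RNA of all 12 libraries was extracted from testes of C57BL/6 males, 4 months old. Fragments of 17 to 40 nt were sequenced in 6 groups of 2 libraries: 10, 50 and 100 ng of RNA before oxidation with sodium periodate (NaIO4), and the same 3 inputs after it. Synthetic spike-in RNAs, 3 with and 3 without a methylated 3′ end, had been added in proportion to the input. The replicates were technical, so every p-value measures how libraries, not animals, vary.

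A miRNA is cut by DROSHA and DICER1 from a hairpin-shaped precursor and ends in free 2′ and 3′ hydroxyls. Periodate destroys such an end and the RNA can then no longer be ligated to an adapter. A piRNA is longer and is made in germ cells without DICER1 from long single-stranded transcripts. Its 5′ end is set by endonucleolytic cutting, its 3′ end is trimmed by PNLDC1, and HENMT1 then adds a 2′-O-methyl group that withstands periodate. Most primary piRNAs begin with U, while partners made by the slicing of a target carry A at base 10. In adult mouse testis the bulk of piRNAs comes from long noncoding transcripts expressed in meiotic and later germ cells.

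The hairpins of 3 members are shown first, since all later positions are counted from a hairpin's base 1. The sequences are RefSeq's, on GRCm38.p6, written 5′ to 3′ with the bases of the member in capitals. Mir7214 lies on the minus strand at chr17:27317035-27317095, Mir7217 on the plus strand at chr17:27355738-27355799, Mir7210 on the plus strand at chr14:24088877-24088930 and Mir468 on the minus strand at chr6:81896599-81896676.
Mir7217: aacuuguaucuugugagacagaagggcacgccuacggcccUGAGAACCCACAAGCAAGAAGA
Mir7210: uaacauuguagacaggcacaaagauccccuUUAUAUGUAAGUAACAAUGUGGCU
Mir468: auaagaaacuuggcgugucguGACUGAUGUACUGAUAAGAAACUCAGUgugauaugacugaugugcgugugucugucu

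The mature sequences of 3 members were in the RefSeq table and are shown with the seed, bases 2 to 8, in capitals.
miR-7217-3p: uGAGAACCcacaagcaagaaga
miR-7210-3p: uUAUAUGUaaguaacaauguggcu
miR-468-5p: gACUGAUGuacugauaagaaacucagu
They are 22, 24 and 27 nt long. No other mouse mature miRNA of the table shared any of the 3 seeds. The first 2 begin with U and the last with G, and all 3 have A at base 10.

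In the annotation of GENCODE M21 (GRCm38), Mir7214 lies in an intron of the long noncoding RNA Gm49793 and Mir7217 in an exon of the long noncoding RNA Gm49794. These 2 hairpins are 38642 bases apart on opposite strands. Mir7210 overlaps no other gene, and the nearest, the noncoding Gm31392, is 12969 bases away. Mir468 also lies outside other genes. On its strand the hairpin Mir7232 is 936 bases away, 1700097M23Rik 1260 bases and the noncoding 1700009C05Rik 3788 bases. The lengths of the 4 hairpins are 61, 62, 54 and 78 nt, in the order Mir7214, Mir7217, Mir7210 and Mir468, against a median of 79 nt for 1005 mouse hairpins. Their predicted folding energies per base (RNAfold) were −0.32, −0.313, −0.169 and −0.186 kcal/mol, all weaker than the median of −0.406. Of the 1005 hairpins, 17.7%, 14.8%, 0.0% and 0.299% had a weaker fold than these.

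The depth behind each value was modest. The RPM values (reads scaled to a common library size) rested on 1924201 to 3347735 reads per library, and 1 read was worth 0.299 to 0.52 RPM. The miRNA table held 326701 to 454158 reads of each unoxidised library and 625 to 937 of each oxidised one. The testis list (miR-741-3p, miR-34c-5p, miR-449a-5p and miR-202-5p) summed to 21676 to 36423 RPM per library before oxidation, with 4 of 4 markers above 0 in all 6 libraries. The vessel and smooth muscle list summed to 9004 to 13706 RPM, striated muscle to 57.9 to 130 RPM, brain to 1.09 to 4.38 RPM, liver to 0.305 to 6.07 RPM and blood to 0 to 2.70 RPM.

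The best measured member, miR-7214-5p, overlapped between the 2 states. Before oxidation it was at 14.3 and 18.9 RPM with 10 ng, 40.3 and 28.97 RPM with 50 ng, and 36.1 and 31.7 RPM with 100 ng. After oxidation it was at 30.1 and 87.8 RPM with 10 ng, 43.3 and 65.4 RPM with 50 ng, and 28.4 and 23.7 RPM with 100 ng. One replicate, the second of 10 ng after oxidation, lay above all other libraries. The means were 28.4 ± 10.0 RPM before and 46.4 ± 25.3 RPM after (SD, n = 6 libraries each), from 504 and 675 reads. The order of the group means was 10 ng after, 50 ng after, 50 ng before, 100 ng before, 100 ng after and 10 ng before. In that order 50 ng before and 100 ng before overlapped, as did 10 ng after and 50 ng after, while the neighbours 50 ng after and 50 ng before, and 100 ng before and 100 ng after, did not. Both 10 ng libraries before oxidation lay below all others.

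The row of miR-7217-3p was the only one of the 4 whose libraries did not overlap between the states. Before oxidation it was at 84.3 and 101 RPM with 10 ng, 43.8 and 50.8 RPM with 50 ng, and 36.1 and 26.8 RPM with 100 ng. After oxidation it was at 5.55 and 0 RPM with 10 ng, 3.14 and 9.35 RPM with 50 ng, and 8.37 and 11.7 RPM with 100 ng. The 3 inputs were thus ordered from 10 to 100 ng before oxidation, without overlap, and in the reverse order of means after it, with overlap between 50 ng and each neighbour. The means were 57.2 ± 29.2 RPM before and 6.35 ± 4.31 RPM after (SD, n = 6), a ratio of 9.01 from 993 and 107 reads.

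The rarer miR-7210-3p lay at 11.8 and 19.6 RPM with 10 ng, 12.02 and 9.26 RPM with 50 ng, and 12.1 and 13.1 RPM with 100 ng before oxidation. After oxidation it was at 0 in both 10 ng libraries, at 6.63 and 11.6 RPM with 50 ng, and at 8.07 and 0.947 RPM with 100 ng. The states overlapped at 50 ng and were apart at the other inputs. The means were 12.99 ± 3.49 and 4.54 ± 4.91 RPM (SD, n = 6), from 228 and 75 reads. Against the floor of 3 reads over the 2 libraries, 0.734 RPM, the 10 ng level after oxidation was at least 6.14-fold lower than the 100 ng mean of 4.51 RPM. This limit rests on replicate 1 of 100 ng: it was 10.99-fold against that library alone and 1.29-fold against replicate 2 alone, which had 3 reads.

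The last member, miR-468-5p, was near the floor of 3 reads (0.896 to 1.56 RPM per library) before oxidation. Before oxidation it was at 1.07 and 1.45 RPM with 10 ng, 1.16 and 0.896 RPM with 50 ng, and 0.337 and 3.05 RPM with 100 ng. After oxidation it was at 35.6 and 38.5 RPM with 10 ng, 6.28 and 14.7 RPM with 50 ng, and 6.57 and 0.947 RPM with 100 ng. The 10 ng libraries after oxidation were the highest, those of 50 and 100 ng overlapped, and the lowest 100 ng library lay within the range before oxidation. The means were 1.33 ± 0.921 and 17.1 ± 16.1 RPM (SD, n = 6), from 24 and 227 reads, so this member reached the tested level (a mean of at least 5 RPM over all libraries) through its values after oxidation.

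**Figure D1:**
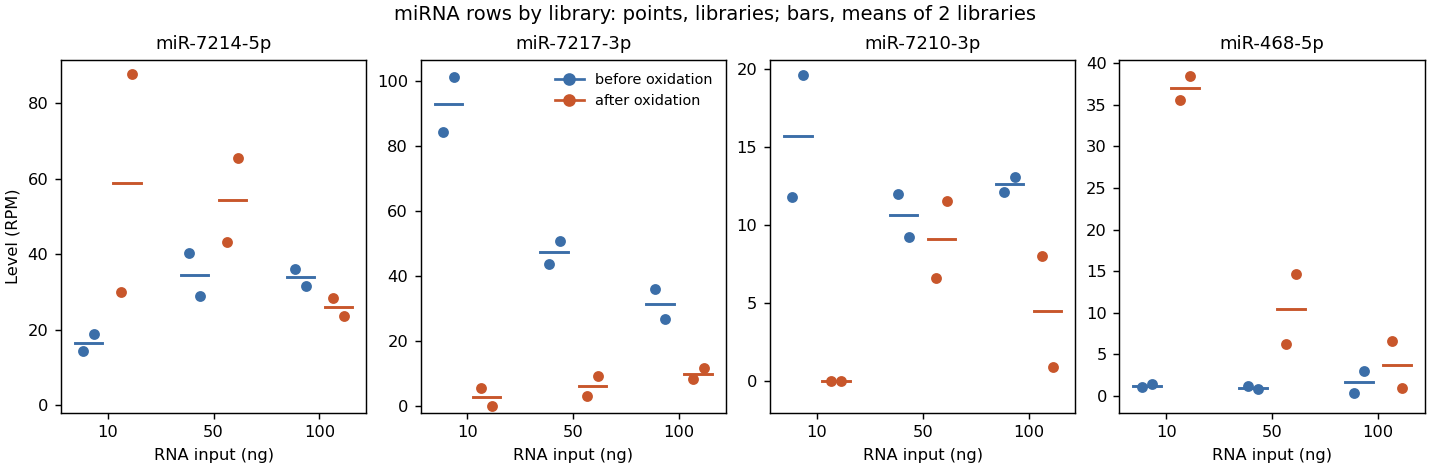
Level in RPM (linear axis) of the 4 miRNA rows in each of the 12 libraries, by RNA input in ng, before (blue) and after (orange) oxidation; points are libraries and bars the means of 2. Row miR-7217-3p lay at 26.8 to 101 RPM before and 0 to 11.7 RPM after, whereas miR-468-5p was highest at 35.6 and 38.5 RPM in the 10 ng libraries after oxidation.

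On the log2(RPM + 1) scale the differences after minus before, averaged over the 3 inputs, were 0.61 for miR-7214-5p, −3.21 for miR-7217-3p, −1.99 for miR-7210-3p and 2.40 for miR-468-5p. Their median was −0.69, beside −6.02 for all 141 tested miRNAs. Between the 2 states 134 of the 141 (95.0%) did not overlap, and 1 of the 4 members did not. The selection used this contrast, so nothing is read from these shares. The members made up 0.0779% of miRNA RPM before oxidation and 24.6% after it, where miR-7214-5p was the highest row of the table, miR-468-5p ranked 5, miR-7217-3p 10 and miR-7210-3p 15.

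The methylated spike-ins give another scale, because they withstand oxidation. They made up 10283.5 to 13808.5 RPM per library before oxidation and 67136.7 to 156397 RPM after it. After oxidation they were higher with 10 ng (134847 and 156397 RPM) than with 100 ng (79191.7 and 67136.7 RPM). A ratio on this scale thus also holds the shift of the spike-ins, which differed by input. Per methylated spike-in read, the ratio of the level before to that after oxidation was 4.95 for miR-7214-5p, 64.8 for miR-7217-3p, 20.2 for miR-7210-3p and 0.782 for miR-468-5p. On this scale the direction of miR-7214-5p turned, from 0.61 to −2.27 as a log2 difference. The same ratio for the summed piRNA-table sequences of the transcript Gm49794, which holds Mir7217, was 8.98, beside 1.16 in RPM. A ratio above 1 per spike-in read is therefore not read here as a loss on oxidation. By this measure the ratios of miR-7214-5p and miR-468-5p lay below that of the transcript, and those of miR-7217-3p and miR-7210-3p above it.

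The partner arms of the same hairpins were nearly empty. For miR-7210-5p the means were 2.10 ± 1.42 RPM before and 0.648 ± 1.01 RPM after (SD, n = 6), from 38 and 12 reads. For miR-468-3p they were 0.212 and 0.233 RPM, from 4 reads in each state. A single read of miR-7217-5p was found in 1 library, and miR-7214-3p was at 0 in all 12. The rows numbered miR-72NN other than the members were 65, with the partner arms of such numbers counted among them. Of these 65, 48 were at 0 throughout and none reached a mean of 5 RPM over all libraries. The highest after oxidation was miR-7230-3p at 8.07 RPM. For comparison, the 21 let-7 rows, miRNAs of the ordinary pathway, summed to 12571 RPM before and 10.4 RPM after, a ratio of 1214.

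The rows most like each member were taken as the 2 other tested miRNAs with the smallest mean absolute difference, over the 12 libraries, of log2(RPM + 1) centred on the row mean. For miR-7214-5p these were miR-3470a at 0.877 and miR-5099 at 0.951, where the median over 140 other miRNAs was 3.37. For miR-468-5p they were miR-7214-5p at 1.042 and miR-5099 at 1.61. For miR-7217-3p they were miR-191-3p at 0.669 and miR-361-5p at 0.718, with a median of 1.74. For miR-7210-3p they were miR-3471 at 0.817 and miR-191-3p at 1.08, with a median of 2.13. The last row, miR-191-3p, had a mean of 10.1 RPM before oxidation and 0 RPM after it. The distances span both states and so hold the oxidation change that chose the members. Nothing is therefore read from these likenesses or medians.

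The sequences of the piRNA table were matched to the 4 hairpins without mismatch. Of the 1005 hairpins, 45 (4.48%) held at least 1 contained sequence and 27 (2.69%) one of 26 to 32 nt. Among these 27, ranked by the RPM of 26 to 32 nt sequences before oxidation, Mir7217 was at rank 1, Mir7210 at rank 2, Mir7214 at rank 5 and Mir468 at rank 7. After oxidation Mir7210 was at rank 1, Mir7217 at rank 3, and the others kept ranks 5 and 7. The members were picked because their hairpins hold such sequences, so nothing is read from these ranks. Antisense matches were limited to 1 sequence with 3 reads on Mir7214. No genome was searched, so other origins of a sequence were not tested, and sequences that overhang a hairpin were matched on at least 20 shared bases.

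Contained sequences summed to 273.6 ± 67.2 RPM before and 146 ± 24.99 RPM after oxidation on Mir7217 (136 sequences), and to 152 ± 24.6 and 188 ± 81.4 RPM on Mir7210 (29 sequences). On Mir7214 they summed to 33.2 ± 6.97 and 38.5 ± 19.1 RPM (73 sequences), and on Mir468 to 21.96 ± 5.84 and 17.5 ± 11.1 RPM (48 sequences; SD, n = 6 throughout). The states overlapped on all hairpins but Mir7217, where each library after oxidation was below each before it. By RPM, 99.3% before and 99.4% after oxidation began with U on Mir7214, 98.9% and 95.9% on Mir7210, 78.4% and 93.2% on Mir7217, and 73.2% and 59.6% on Mir468. An A at base 10 was present in 98.7% and 97.1% on Mir7210 and in 3.80% and 5.21% on Mir7214. It was present in 27.3% and 6.44% on Mir7217 and in 36.7% and 48.5% on Mir468. Most contained RPM on Mir7210, 149.3 before and 178.6 after, came from sequences that begin at base 1. The shares on that hairpin thus mainly give the letters of 1 start.

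The sequences began at many positions of the hairpins, and a few of these held a large part of the RPM, as the plot of 5′ ends shows. On Mir7210 the sequences from base 1 held 77.6% of the hairpin's RPM before and 76.3% after oxidation. On Mir7217 the main starts were base 33 with 42.5% and 37.6%, base 41, the first base of miR-7217-3p, with 21.9% and 7.94%, and base −3, upstream of the hairpin, with 12.7% and 44.0% (base 0 is the base before base 1). On Mir7214 bases 1, 4 and 6 were the highest before oxidation, base 1 itself with 34.4% and 22.4%. On Mir468 the starts −3, −1, 2 and 22, the last being the first base of miR-468-5p, held 16.7%, 25.9%, 22.3% and 10.1% before oxidation and 6.46%, 22.6%, 22.6% and 20.7% after it.

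**Figure D2:**
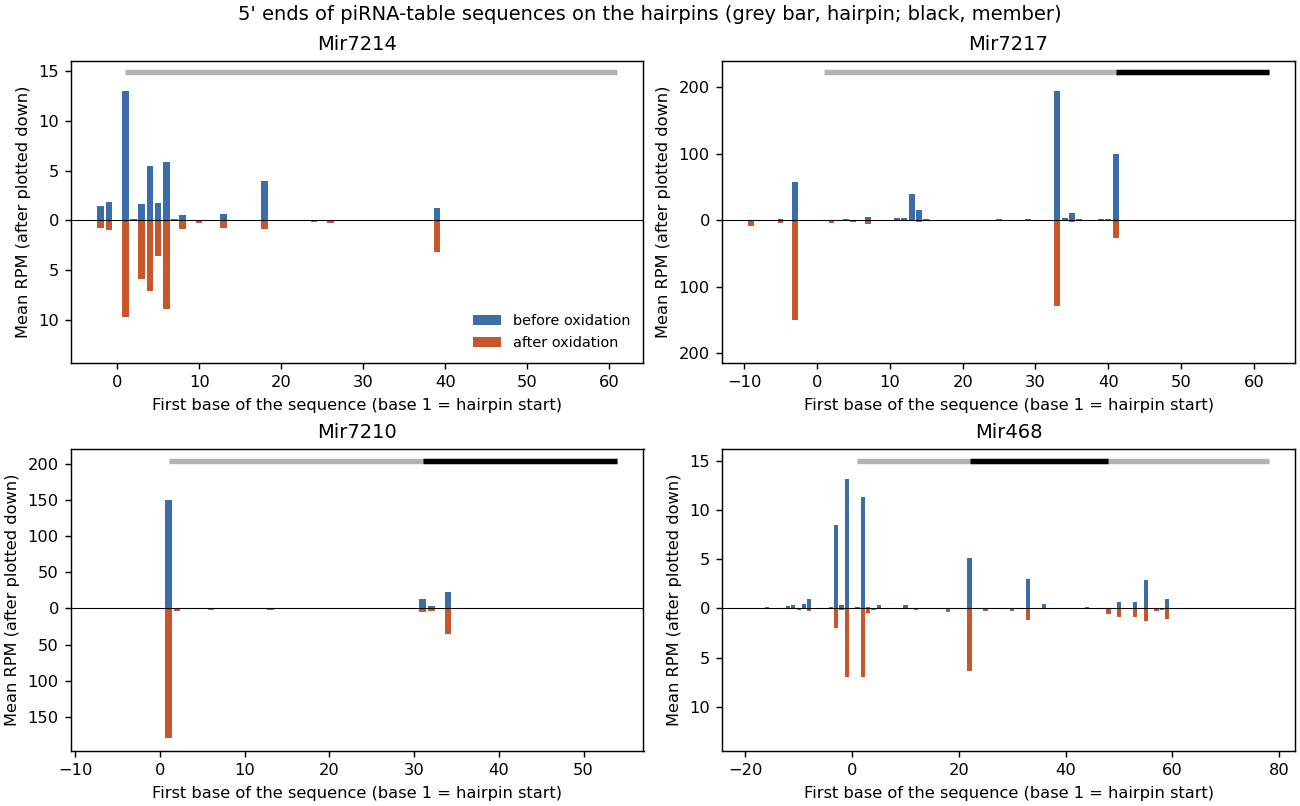
Mean RPM over 6 libraries of the piRNA-table sequences that begin at each base of the 4 hairpins, before oxidation (blue, upwards) and after it (orange, downwards), with overhanging sequences included. The grey bar is the hairpin and the black part the member (none drawn on Mir7214); on Mir7217 the start at base −3 held 57.9 RPM before and 149.8 RPM after, and that at base 41 held 100.3 and 27.0 RPM.

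Near the annotated length of a mature miRNA, the piRNA table held few sequences with the same 5′ end. At the first base of miR-7217-3p the piRNA table held 17 sequences from 17 to 40 nt but none of 20 to 24 nt, the annotated 22 nt with 2 nt to either side. At the first base of miR-7210-3p none had 22 to 26 nt, at that of miR-468-5p none had 25 to 29 nt, and at that of miR-7210-5p, 23 nt long, none had 21 to 25 nt. No sequence shorter than 27 nt shared the start of miR-7210-3p, so its gap has no lower bound. Only 7 sequences shared the start of miR-468-5p. Across 69 mature miRNAs of hairpins with piRNA-table sequences, 87 sequences began exactly at a mature's first base, and 85 of them ended more than 2 nt from its last base. Of 72 sequences that began 1 base off, 43 ended within 2 nt of it. At base 1 of Mir7214 the same 21 to 25 nt were absent between sequences of 20 and 26 nt. This comparison was made after the values had been seen.

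**Figure D3:**
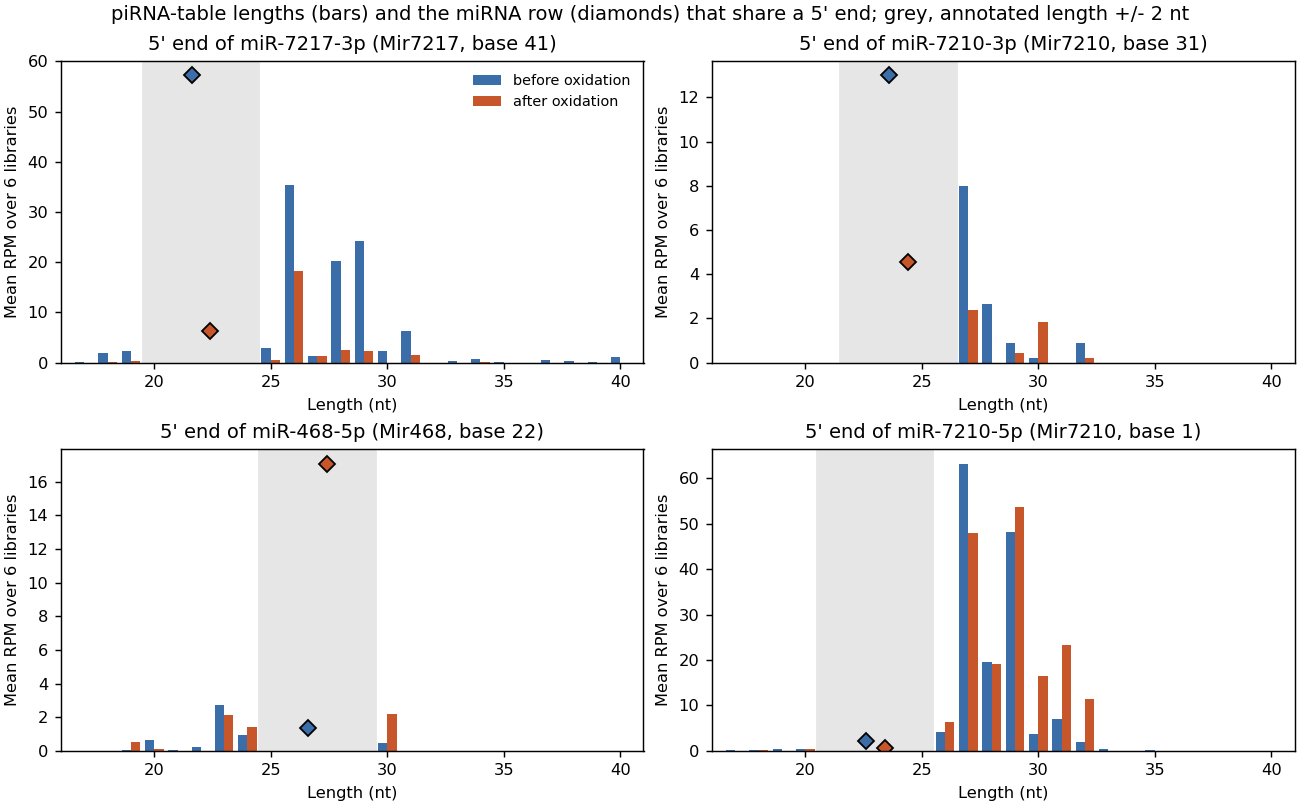
Mean RPM over 6 libraries, before (blue) and after (orange) oxidation, of piRNA-table sequences by length in nt (bars) that begin at the first base of 4 annotated mature miRNAs, with the miRNA row of that name as diamonds drawn inside the grey band of the annotated length ± 2 nt (its own length is not recorded). No bar falls in a grey band; the row of miR-468-5p, whose band covers 25 to 29 nt, was at 1.33 and 17.1 RPM beside bars of at most 2.70 RPM.

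Joining both tables takes the reads of a member row to begin at the annotated first base, which is not recorded. Under that reading the member rows were part of longer series of lengths. At the first base of miR-7217-3p the row supplied 36.3% of the joined RPM before oxidation and 19.0% after it. At that of miR-7210-3p it supplied 50.6% and 48.5%, and at that of miR-468-5p 20.7% and 73.0%. The piRNA-table sequences at these ends summed to 100.3 ± 62.1 RPM before and 27.0 ± 11.8 RPM after for miR-7217-3p, 12.7 ± 1.97 and 4.82 ± 3.48 RPM for miR-7210-3p, and 5.10 ± 1.46 and 6.33 ± 5.41 RPM for miR-468-5p (SD, n = 6). For miR-7217-3p the ratio before to after was 3.71 for these sequences and 9.01 for the row, and for miR-7210-3p it was 2.63 and 2.86.

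The sequences that carry this pattern on Mir7217 are given with the bases of miR-7217-3p in capitals. The first 3 share its first base, the next 2 begin 8 bases before it, the next ends at the base before it, and the last begins upstream of the hairpin.
Mir7217 base 41, 26 nt: TGAGAACCCACAAGCAAGAAGAgagc
Mir7217 base 41, 28 nt: TGAGAACCCACAAGCAAGAAGAgagcag
Mir7217 base 41, 29 nt: TGAGAACCCACAAGCAAGAAGAgagcaga
Mir7217 base 33, 23 nt: tacggcccTGAGAACCCACAAGC
Mir7217 base 33, 27 nt: tacggcccTGAGAACCCACAAGCAAGA
Mir7217 base 13, 28 nt: gtgagacagaagggcacgcctacggccc
Mir7217 base −3, 26 nt: tcggaacttgtatcttgtgagacaga
All 7 match the transcript Gm49794, as did all 25 sequences that reach in from upstream and all 48 that run past the 3′ end of the hairpin.

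Within the start at base 41 the lengths differed. The 26 nt sequence was at 63.2, 59.2, 23.3, 24.2, 17.2 and 25.3 RPM before oxidation (10, 10, 50, 50, 100 and 100 ng) and at 6.47, 24.4, 25.1, 20.9, 22.1 and 10.7 RPM after it. The 29 nt sequence was at 40.4, 51.6, 20.9, 10.5, 9.78 and 12.2 RPM before and 0, 0, 0.698, 1.78, 9.56 and 1.89 RPM after. The states overlapped for 26 nt and did not for 28 or 29 nt, whose means had ratios of 1.93, 7.91 and 10.4. The start at base 33 as a whole was at 194.5 ± 58.3 RPM before and 128.1 ± 38.9 RPM after (SD, n = 6), with overlap, and its lengths differed too. The 27 nt sequence was at 35.3 and 32.4 RPM, the 28 nt one at 13.7 and 2.29 RPM. The 23 nt sequence was at 35.2 ± 3.83 RPM before and 29.9 ± 20.2 RPM after. Its values were 31.4, 31.2, 38.4, 36.4, 40.5 and 33.2 RPM before and 10.6, 0, 39.8, 32.5, 47.2 and 49.3 RPM after, so that only the 10 ng libraries after oxidation lay apart.

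The sequences that end at base 40, directly before miR-7217-3p, were nearly absent after oxidation. There were 8 of them, of 26 to 34 nt, which began between bases 7 and 15. Together they were at 57.5 ± 9.69 RPM before oxidation (44.8 to 67.1 RPM, n = 6) and at 0.0498 ± 0.122 RPM after it, 1013 reads against 1. The 28 nt sequence from base 13, the highest of them, was at 48.2, 34.9, 42.3, 35.2, 31.4 and 26.5 RPM before and at 0 in all 6 libraries after oxidation. Against the floor of 3 reads over these 6 libraries, 0.191 RPM, it was at least 190.7-fold lower. It begins with G and has A at base 10. On Mir7210 the 1 sequence that ends directly before miR-7210-3p went from 3.71 ± 2.50 to 16.4 ± 9.88 RPM (SD, n = 6), and on Mir468 12 such sequences went from 2.25 ± 1.26 to 0.579 ± 0.693 RPM, both with overlap.

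The start at base −3 of Mir7217, on the other side of the hairpin, had higher values after oxidation. Its 11 sequences were at 28.6, 39.2, 68.2, 69.3, 71.8 and 70.4 RPM before and at 233.5, 224.0, 90.7, 165, 93.2 and 92.2 RPM after, without overlap. Per methylated spike-in read the ratio before to after was 3.23. The 26 nt sequence alone had means of 23.1 ± 5.17 and 84.5 ± 56.9 RPM (SD, n = 6), with overlap.

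The transcript Gm49794 as a whole, 13039 bases long with the hairpin at base 1628, matched 10594 piRNA-table sequences. They summed to 10708 ± 792 RPM before and 9221 ± 253 RPM after oxidation (SD, n = 6). Before oxidation, 81.0% of this RPM was of 26 to 32 nt and 91.0% began with U. In windows of 62 bases, the length of the hairpin, the hairpin's own window held 397 RPM of starts before and 179 RPM after, beside medians over 210 windows of 12.1 and 10.6 RPM. Only 2 windows were higher before oxidation, and 15 were higher after it.

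On Mir7210 the dominant sequences lie on the arm opposite the member and begin at base 1, where miR-7210-5p also begins.
Mir7210 base 1, 27 nt: taacattgtagacaggcacaaagatcc
Mir7210 base 1, 29 nt: taacattgtagacaggcacaaagatcccc
Mir7210 base 1, 31 nt: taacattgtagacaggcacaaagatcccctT
Mir7210 base 31, 27 nt: TTATATGTAAGTAACAATGTGGCTctc
Capitals mark bases of miR-7210-3p. The start at base 1 was at 149.3 ± 24.5 RPM before and 178.6 ± 69.9 RPM after (SD, n = 6). The shortest of these, 27 nt, was at 65.0, 62.4, 77.6, 75.9, 57.0 and 41.8 RPM before and 58.3, 43.1, 43.3, 40.96, 53.8 and 49.0 RPM after. The 31 nt sequence was at 12.1, 15.97, 0.388, 4.48, 5.73 and 3.66 RPM before and 63.8, 37.9, 9.07, 13.4, 9.86 and 6.00 RPM after, highest in the 10 ng libraries of both states. The mean length weighted by RPM was 28.03 nt before and 28.77 nt after. At base 31, the start of the member, the 27 nt sequence was at 6.07 to 8.77 RPM before and 0 to 4.18 RPM after, without overlap, while the start at base 34 was at 23.4 ± 7.26 and 35.1 ± 18.7 RPM.

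On Mir468 all piRNA-table sequences were rare, and only 1 overhanging sequence reached a mean of 5 RPM.
Mir468 base 2, 26 nt: taagaaacttggcgtgtcgtGACTGA
Mir468 base 2, 29 nt: taagaaacttggcgtgtcgtGACTGATGT
Mir468 base 22, 23 nt: GACTGATGTACTGATAAGAAACT
Capitals mark bases of miR-468-5p. From base 2, the 26 nt sequence was at 5.09 ± 3.36 RPM before and 0.983 ± 1.43 RPM after, and the 29 nt one at 1.14 ± 0.633 and 4.06 ± 4.11 RPM (SD, n = 6), both with overlap. At the member's own start the 23 nt sequence was at 2.70 ± 2.05 and 2.11 ± 2.21 RPM. The RPM-weighted mean length of the piRNA-table sequences was 23.37 nt before and 25.31 nt after at base 22, and 26.72 and 28.12 nt at base 2.

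On Mir7214 no sequence of the piRNA table reached a mean of 5 RPM over the 12 libraries. The 7 sequences that begin at base 1 summed to 9.31 to 16.8 RPM before and 0 to 17.6 RPM after. The start at base 18 went from 3.97 ± 2.74 RPM (72 reads) to 0.860 ± 1.01 RPM (14 reads), with overlap.

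The input series asks how the values depended on the amount of RNA, and this contrast was not used to pick the members. With 10 against 100 ng before oxidation 76 of 141 miRNAs (53.9%) passed the test (limma with a mean-variance trend, adjusted p below 0.05 by Benjamini and Hochberg), and 0 of the 4 members did. The fit gives each row 1 spread over all 12 libraries, so the members' standard errors here also hold their scatter after oxidation. The members were picked for their level after oxidation, so 0 of 4 is not read as a lack of change with input. The 76 were 27 higher and 49 lower, a balance that became 40 and 39 with spike-in scaling, 39 and 42 with edgeR, and 36 and 30 with DESeq2. The difference of log2(RPM + 1) was −0.998 ± 0.46 (SE) for miR-7214-5p with a limma adjusted p of 0.0941 and 1.54 ± 0.76 for miR-7217-3p with an adjusted p of 0.115. It was 0.25 ± 0.60 for miR-7210-3p and −0.05 ± 0.68 for miR-468-5p. The 2 libraries of each input did not overlap for miR-7214-5p and miR-7217-3p, as for 125 of the 141 tested miRNAs (88.7%). For miR-7217-3p edgeR on the recovered reads gave an adjusted p of 0.000377, and for miR-7210-3p DESeq2 gave 0.0152. The testis markers moved with input too, summing to 22318 RPM at 10 ng and 36313 RPM at 100 ng. So did vessel and smooth muscle, at 9118 and 13608 RPM, and striated muscle, at 61.1 and 119 RPM. Blood and brain, at low RPM, moved the same way, and liver the other way, from 3.94 to 0.490 RPM. The part of these lists in the result was not tested.

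With 10 against 100 ng after oxidation 2 of 141 miRNAs (1.42%) passed, and none of the 3 members tested did. For miR-468-5p no test is given here, since it reached 5 RPM only through the 10 ng libraries after oxidation (a mean of 9.21 RPM over all 12 libraries and 3.65 RPM without them). Its means were 37.0 ± 2.01 RPM with 10 ng and 3.76 ± 3.98 RPM with 100 ng (SD, n = 2). For miR-7217-3p and miR-7210-3p the differences were −2.09 ± 0.76 and −2.07 ± 0.60, with limma adjusted p of 0.343 and 0.173, and for miR-7214-5p 0.96 ± 0.46 with 0.521. DESeq2 gave miR-7210-3p an adjusted p of 0.00908. The 2 inputs did not overlap for any of the 3 members tested. Of the 141 tested miRNAs 25 (17.7%) did not overlap, miR-468-5p among them. That row passed the filter through these same 10 ng libraries, so nothing is read from its separation. Of the 141, 51 were at 0 in all 4 libraries compared. Among the 18 with a mean of at least 3 RPM after oxidation, members included, 11 (61.1%) did not overlap.

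With 50 against 100 ng no member passed in either state. Before oxidation 0 of 141 miRNAs (0.0%) passed with limma, 24 had an unadjusted p under 0.05, and edgeR called 14 and DESeq2 35. The members' differences ran from −0.24 to 0.58. Both inputs were apart for miR-7217-3p and miR-7210-3p, as for 66.0% of the tested miRNAs. After oxidation 6 of 141 (4.26%) passed, and the members' differences were 1.01 for miR-7214-5p, −0.74 for miR-7217-3p, 1.22 for miR-7210-3p and 1.48 for miR-468-5p, with limma adjusted p of 0.426 or more. Only miR-7214-5p had no overlap there, as had 18.4% of the tested miRNAs. DESeq2 gave adjusted p of 0.000378 for miR-7214-5p and 0.000141 for miR-7210-3p in this comparison.

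**Figure D4:**
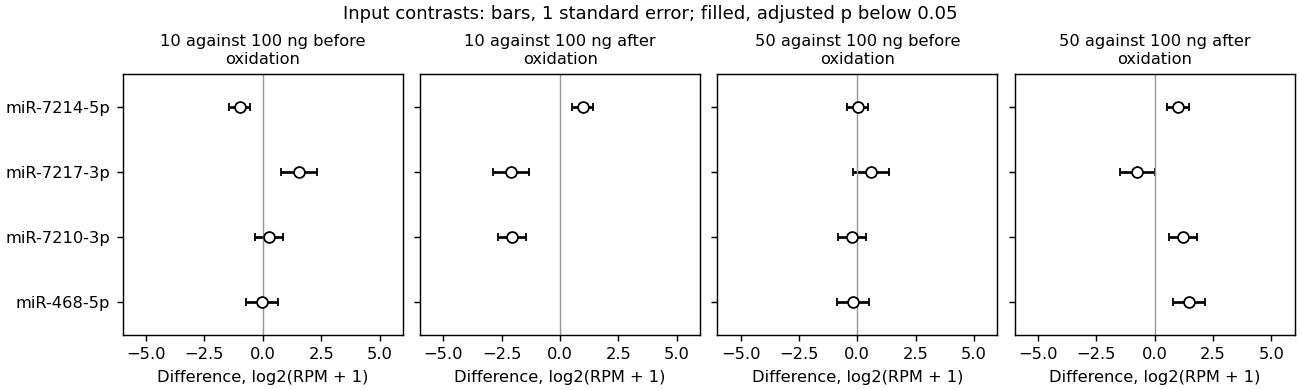
Difference of log2(RPM + 1) between RNA inputs for the members in 4 contrasts within a state, each fitted with limma on 141 miRNAs, with bars of 1 standard error; a filled point would mark an adjusted p below 0.05. All points are open, from −2.09 for miR-7217-3p at 10 against 100 ng after oxidation, where no point is drawn for miR-468-5p, to 1.54 for miR-7217-3p before oxidation.

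The change on oxidation by input is a description, since the oxidation contrast chose the members, and no test of it is given for them. In the order 10, 50 and 100 ng the log2 changes of miR-7214-5p were 1.59, 0.62 and −0.37, and those of miR-468-5p 4.08, 2.40 and 0.72. For miR-7217-3p they were −5.19, −2.88 and −1.56, and for miR-7210-3p −4.02, −0.24 and −1.70. The value at 10 ng was thus the highest for the first 2 members and the lowest for the others. Of all 141 tested miRNAs, 52 (36.9%) passed limma's test of the change at 10 ng minus that at 100 ng, with 24.1% higher and 12.8% lower. Spike-in scaling turned that balance from 34 higher and 18 lower to 25 and 41, edgeR called 0 and DESeq2 8.

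On the hairpins 30 of 457 matched piRNA-table sequences reached a mean of 5 RPM, 20 on Mir7217, 9 on Mir7210, 1 on Mir468 and 0 on Mir7214. Before oxidation 1 of the 30 passed at 10 against 100 ng, where 409 of 22726 sequences (1.8%) did, 1.06% higher and 0.744% lower (240 and 169, or 1368 and 474 with spike-in scaling). It was the 29 nt sequence from base −3 of Mir7217, at 3.21 and 2.54 RPM with 10 ng and 15.8 and 15.9 RPM with 100 ng, a difference of −2.12 ± 0.35 (SE, limma adjusted p = 0.0218). The call was lost without any 1 of the 6 libraries before oxidation (adjusted p up to 0.199).

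After oxidation 9 of the 30 passed at 10 against 100 ng, 4 higher and 5 lower, where 9398 of 22726 sequences (41.4%) did, 12.5% higher and 28.8% lower. The balance of 2850 higher and 6548 lower became 482 and 8219 with spike-in scaling, 697 and 6996 with edgeR, and 1617 and 7546 with DESeq2. The 26 nt sequence from base −3 of Mir7217 was at 144 and 160 RPM with 10 ng and 26.9 and 41.4 RPM with 100 ng, a difference of 2.15 ± 0.42 (SE, limma adjusted p = 0.00334). A 31 nt sequence with the same start was at 0 in both 10 ng libraries and at 10.8 and 7.58 RPM with 100 ng. These lengths of 1 start differed in opposite directions, while the 29 and 30 nt sequences between them had differences of 0.11 and 0.22 and did not pass. From base 33 the 23 nt sequence was at 10.6 and 0 RPM with 10 ng against 47.2 and 49.3 RPM, and the 25 nt one at 6.47 and 27.5 RPM against 2.99 and 0.947 RPM (limma adjusted p = 0.007 and 0.0155). The 28 nt sequence from base 33 was at 0 in both 10 ng libraries and at 6.57 and 5.05 RPM with 100 ng. The 29 nt one from base 41 was also at 0 with 10 ng, and at 9.56 and 1.89 RPM with 100 ng (limma adjusted p = 0.0116 and 0.0144). From base 1 of Mir7210 those of 29 and 31 nt were higher with 10 ng, by 1.33 ± 0.39 and 2.53 ± 0.65 (SE, limma adjusted p = 0.0226 and 0.0128). The 27 nt sequence at the start of miR-7210-3p was at 0 in both 10 ng libraries, like the row of the member, and at 4.18 and 2.84 RPM with 100 ng. All 9 calls were lost when every sequence above 0 was tested (limma adjusted p of 0.0759 to 0.53). With the filter kept, 4 of the 9 held without each library in turn, and of these the 27 nt call on Mir7210 was lost with a pseudocount of 10 (adjusted p = 0.117). The calls from base 1 of Mir7210 were lost without 1 of the 100 ng libraries after oxidation. So were, on Mir7217, those of 25 and 28 nt from base 33 and of 29 nt from base 41 (limma adjusted p up to 0.110). The 29 nt call on Mir7210 was also lost without replicate 2 of 10 ng. With edgeR both calls from base 1 of Mir7210 were lost (adjusted p of 0.191 and 0.0747), and with spike-in scaling these and the 25 nt call on Mir7217. The calls of 28 and 29 nt on Mir7217 were also lost with a pseudocount of 10. Across all 22726 sequences, which share library and depth, the 2 libraries of 10 ng after oxidation correlated at 0.47 (Pearson, on log2(RPM + 1), across sequences), against 0.884 for those of 100 ng.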

How the data were processed

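The authors deposited RPM values for 1915 miRNA rows and 1018402 piRNA sequences, and spike-in read counts, per the file headers. Bowtie and the builds mm10 and hg38 are named in the submitters' processing notes, with no version; how sequences were assigned to either table could not be read from the labels. Reads were recovered from the smallest steps of the piRNA values, 100% of which were whole within 0.01 of a read, as were all values of the members. Counting limits the precision of low values, and 3 reads were taken as the floor. Replicates could differ more widely, as with 65 and 169 reads of miR-7214-5p in the 2 libraries of 10 ng after oxidation. RPM values were fitted as log2(RPM + 1) with limma 3.58.1 (R 4.3.3) to 6 group means over all 12 libraries, for features averaging 5 RPM or more (141 miRNAs, 22726 piRNA sequences), and tested on simulated data first. The simulation changed 10 ng before oxidation and gave all groups the same setting of scatter. For miRNAs 85.0% of 2-fold and 100.0% of 4-fold changes were recovered. For piRNA sequences the shares were 11.1% and 59.0%. Alternatives were pseudocounts of 0.1 and 10, no filter, a filter at 50 RPM, scaling to methylated spike-in reads, edgeR 4.0.16 and DESeq2 1.42.0 on recovered reads, a replicate block and each library left out. Hairpins and mature miRNAs came from RefSeq tables (GRCm38.p6; all 4 hairpins and 3 of 4 members matched), folds from RNAfold 2.7.2, and gene positions from GENCODE M21, on the same assembly as mm10. The members and lists were chosen with earlier results of these data known. Named were the members, their partner arms, the 3 highest contained sequences per hairpin and the 2 likest miRNAs per member; sequences that overhang a hairpin or share a start were chosen after seeing the values. No column was left out, and the labels give no batch. Some sequences of Mir7214 are not reported here.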

Additional observations from a re-analysis of the deposited data

How the results depend on the processing

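With 2 technical libraries per group and 625 to 937 miRNA reads per library after oxidation, counts of calls moved with most settings. The cause was not tested. At 10 against 100 ng before oxidation 76 miRNAs were called, but 38 with a pseudocount of 0.1, 115 without a filter, 26 at 50 RPM (fewer tested) and 55 to 82 with 1 library left out. After oxidation the 2 called became 4 with a pseudocount of 0.1 and 4 with DESeq2, and 1 to 9 with 1 library left out (8 or 9 without replicate 1 of 10 ng or either library of 100 ng after oxidation). At 50 against 100 ng before oxidation the 0 calls became 40 with a pseudocount of 10, 18 without a filter, 2 at 50 RPM, 17 with spike-in scaling, 14 with edgeR, 35 with DESeq2 and 0 to 13 (without either 10 ng library before oxidation) with 1 library left out. After oxidation the 6 calls became 10 with a pseudocount of 0.1, 2 with one of 10, 1 without a filter, 0 with edgeR, 10 with DESeq2 and 0 (without any library before oxidation) to 14 (without replicate 1 of 100 ng after oxidation) with 1 library left out. For oxidation by input the 52 calls became 18, 95, 18, 0 and 8 with pseudocounts of 0.1 and 10, the 50 RPM filter, edgeR and DESeq2, and 36 to 59 with 1 library left out. Of piRNA sequences at 10 against 100 ng before oxidation the 409 became 730 with a pseudocount of 10, 101 without a filter, 1842 with spike-in scaling, 247 with edgeR, 1429 with DESeq2 and 2 (without either 10 ng library before oxidation) to 3405 (without replicate 2 of 10 ng after oxidation) with 1 library left out. After oxidation the 9398 became 2806 without a filter, 1283 at 50 RPM and 6499 to 15589 with 1 library left out, the last without replicate 1 of 10 ng after oxidation.

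Replicate numbers did not pair the libraries (2 of 15 pairs of groups correlated above 0.1 in miRNA deviations, 0 of 15 in piRNA deviations). With the number as a replicate block, calls went from 2 to 1 and from 6 to 3 for miRNAs at 10 and 50 ng after oxidation, from 409 to 216 for piRNA sequences before oxidation, and from 52 to 46 for oxidation by input.

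The median oxidation change of the members, −0.69, became −3.14 with spike-in scaling, where that of miR-7214-5p turned to −2.27, and −0.89 to −0.48 with 1 library left out. Differences near 0 changed sign. For miR-468-5p at 10 against 100 ng before oxidation they were 0.20 with a pseudocount of 0.1, 0.30 with spike-in scaling and −0.85 to 0.75 with 1 library left out, and at 50 ng −0.999 to 0.60. They were −0.22 to 0.25 for miR-7214-5p at 50 ng before and −0.0906 to 0.60 for miR-7210-3p at 10 ng before. Of 285 values of single members under alternatives 258 stayed the same, 7 moved, 9 changed sign and 11 became called. For contrasts between inputs, the same meant an unchanged direction and call. Oxidation changes have no call, and for them it meant a shift below the SD between replicates. A larger shift in the same direction was counted as moved. These 285 values came from the pseudocounts, spike-in scaling and each library left out. The calls of single members by edgeR and DESeq2 given above are not among them. Sums over contained sequences of 24 nt or more kept their direction, but on Mir7217 the states then overlapped (196.7 and 92.1 RPM).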
